A study of Mus musculus with 105 samples.

Results

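Newly made microRNAs (miRNAs) of mouse embryonic stem cells (ESC) were compared with those of dividing mouse embryonic fibroblasts (DMEF). The members were all 1013 mouse miRNAs among the 1021 rows of the small-RNA tables, read in the 12 libraries of labelled RNA from these lines at 2, 4 and 8 h. Of the 1013 miRNAs, 739 had a count in those libraries, 509 of them in both lines, 84 in ESC alone and 146 in DMEF alone, and 442 had enough counts to be tested. The series traces how miRNAs are made and lost and holds 105 samples, of which 15 belong to these libraries when the 3 second sequencing runs of DMEF course 2 are included. The label is 5-ethynyluridine (5EU), taken up by cells and built into RNA during transcription in place of uridine, so that RNA made after its addition can be tagged and isolated. The pulled-down RNA gives the EU library, called new or labelled here, and the total RNA of the same cells gives the input library, called standing. Each line was followed in 2 time courses, and a course is the replicate throughout.

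ESC were the v6.5 line, labelled as C57BL/6, at passages 5 to 15. They were grown in DMEM/F12 with supplements such as B27 and N2, with LIF and with the inhibitors PD0325901 and CHIR99021, and were given 125 µM 5EU. DMEF were C57BL/6J fibroblasts from embryos, also at passages 5 to 15, grown in DMEM with serum and passaged every few days so that they kept dividing, and they were given 400 µM 5EU. Line, medium and dose therefore changed together and cannot be told apart, and ESC stands for 1 cell line. The labels do not say that the courses were separate cultures, so p-values measure only the spread between these courses. The fits estimate that spread partly from all miRNAs together, so a miRNA whose own courses disagree can still have a low p. For example, miR-100-5p, at 0 and 364 CPM in the labelled ESC courses, passed the new-to-standing test below. The DMEF course 2 table has 1 column for each time, which may hold either sequencing run or both.

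A miRNA is cut from a hairpin in a longer transcript by Drosha and then Dicer, and 1 arm of the hairpin usually stays in an Argonaute protein, where it guides repression of messenger RNAs. The seed, bases 2 to 8 of the miRNA, does most of the target recognition, so miRNAs that share a seed share many targets. Mouse embryonic stem cells are known for the clusters miR-290 to miR-295 (the miR-290 cluster below) and miR-302/miR-367, which favour rapid cycling and the pluripotent state, and for LIN28 proteins, which block the processing of let-7 precursors. Fibroblasts are known for miR-21, let-7, miR-199, miR-214, miR-143, miR-145 and the miR-23/24/27 clusters.

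The sequences below, from RefSeq on GRCm38.p6, are the miRNAs on which the comparison turns, written 5′ to 3′ with the seed in capitals. The first group, from miR-294-3p to miR-96-5p, was higher in labelled ESC RNA. For miR-17-5p and miR-20a-5p that call depended on the scaling, as given below. The group shows the seed AAGUGCU on 4 hairpins, the seed CUCAAAC of the 5p arms, and the related but shifted seed AAAGUGC of the miR-17 family. The second group, from miR-21a-5p to miR-125b-5p, was higher in labelled DMEF RNA. In the last group are 4 miRNAs whose new-to-standing ratio differed between the lines, beside miR-214-3p, which has a single uridine.
miR-294-3p: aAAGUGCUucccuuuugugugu
miR-291a-3p: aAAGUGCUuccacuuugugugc
miR-295-3p: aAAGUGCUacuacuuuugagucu
miR-302b-3p: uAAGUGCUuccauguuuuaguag
miR-290a-5p: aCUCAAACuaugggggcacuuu
miR-17-5p: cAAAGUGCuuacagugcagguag
miR-20a-5p: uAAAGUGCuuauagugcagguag
miR-96-5p: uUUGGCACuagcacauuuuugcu
miR-21a-5p: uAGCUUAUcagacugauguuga
let-7i-5p: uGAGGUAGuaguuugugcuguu
let-7b-5p: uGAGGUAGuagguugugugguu
miR-125b-5p: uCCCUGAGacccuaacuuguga
miR-29b-3p: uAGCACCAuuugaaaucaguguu
miR-7a-5p: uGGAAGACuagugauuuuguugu
miR-154-3p: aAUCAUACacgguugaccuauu
miR-376b-3p: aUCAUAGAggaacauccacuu
miR-214-3p: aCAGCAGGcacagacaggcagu

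The hairpins of the miR-290 cluster lie on the plus strand of chromosome 7, with miR-290a-5p at chr7:3218639-3218660, miR-294-3p at chr7:3220691-3220712 and miR-295-3p at chr7:3220815-3220837. The last 2 fall within the annotated span of the noncoding gene D7Ertd143e and of Nlrp12. miR-302b-3p, at chr3:127545275-127545297, lies within the span of Larp7. miR-17-5p, at chr14:115043684-115043706, and miR-20a-5p, at chr14:115044183-115044205, belong to the miR-17-92 cluster. miR-21a-5p, at chr11:86584120-86584141 on the minus strand, lies within the span of the protein-coding gene Vmp1, and miR-154-3p, at chr12:109738474-109738495, within that of the noncoding gene Mirg. The table of gene spans does not separate exons from introns. The mature sequences of miR-125b-5p, miR-29b-3p and miR-7a-5p are each made from 2 loci, which the counts cannot separate. Of the 1013 names, 831 matched a RefSeq mature sequence, and these rows held 86.2% to 90.6% of the counts of a course.

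Labelled ESC libraries were the shallower ones. They held 59406 miRNA counts in course 1 and 200619 in course 2, summed over the 3 times, against 758275 and 1026461 in DMEF, and single libraries ran from 11392 to 105158 counts in ESC and from 208626 to 498340 in DMEF. Shares are given as a percentage of the labelled miRNA counts or as CPM, the count divided by the miRNA total and multiplied by 1e+06, and a count of 0 allows up to 3 counts, which is 11.5 CPM over both ESC courses and 1.68 CPM over both DMEF courses. Intervals and these limits cover counting error only. Libraries made without label, present for course 1, put the pulldown background by the sequencing standards at 7.83%, 4.77% and 2.60% of the counts at 2, 4 and 8 h in ESC and at 1.85%, 1.39% and 0.746% in DMEF. In the mRNA libraries of the same lines, Pou5f1, which encodes the pluripotency factor OCT4, was at 600 and 617 CPM in ESC and at 5.23 and 7.30 CPM in DMEF. Col3a1, a collagen gene of fibroblasts, was at 1869 and 1590 CPM in DMEF and at 54.8 and 71.6 CPM in ESC. The blood marker Ptprc and the endothelial marker Cdh5 were each below 0.1 CPM in both lines, whereas Pecam1, which stem cells also express, was at 70.6 and 75.4 CPM in ESC. Thus each line carried its own markers, and the 2 ESC courses resembled each other across the 1013 miRNAs (Pearson r = 0.964 on log2 CPM) as did the 2 DMEF courses (0.984), while pairs from different lines gave 0.557 to 0.609. These correlations are across miRNAs, which are not independent replicates. They include the 274 miRNAs without a count in any of the 12 libraries, which take the same value in every course.

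The 2 h library of ESC course 2 stood apart. It held miR-1a-3p, a miRNA of heart and skeletal muscle, at 18751 CPM (559 counts), against 1295 and 1807 CPM at 4 and 8 h of that course and 0 in every library of ESC course 1. It was also the highest of the 6 ESC libraries for let-7a-5p at 5132 CPM, miR-125b-5p at 4160 CPM, miR-100-5p at 1241 CPM and miR-9-5p, a neural miRNA, at 1510 CPM. For let-7a-5p, the other 2 libraries of that course held 1706 and 1845 CPM and those of course 1 held 32.5 to 176 CPM.

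Most miRNAs differed between the lines in the share of labelled counts. Of 442 tested, 176 were higher in ESC (39.8%) and 149 were lower (33.7%), together 73.5%, at an adjusted p under 0.05 in edgeR's quasi-likelihood test with Benjamini-Hochberg adjustment. The expression filter let a miRNA enter on the counts of 1 line alone, and it could then be called only toward that line. List tallies below that hold such members are therefore not independent support for a direction. The median log2 difference of all 442, ESC minus DMEF, was 0.49, so single values should be read against it. Scaling by TMM moved that median to 0.07 and gave 148 higher and 160 lower, and DESeq2 moved it to -0.01 with 142 higher and 157 lower. Scaled to the sequencing standards, which were read at 99464 to 155617 counts in DMEF course 1 and 607 to 775 in course 2, none was called in edgeR, with 20 under an unadjusted p of 0.05. New miRNA output was concentrated in both lines: the 10 most abundant miRNAs made 62.2% and 60.9% of labelled counts in the ESC courses and 49.8% and 49.97% in the DMEF courses. Only 6 miRNAs were needed to reach 50% of the counts in each ESC course, against 11 in each DMEF course, and the leading miRNA was miR-294-3p in all 6 ESC libraries and miR-21a-5p in all 6 DMEF libraries.

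**Figure D1:**
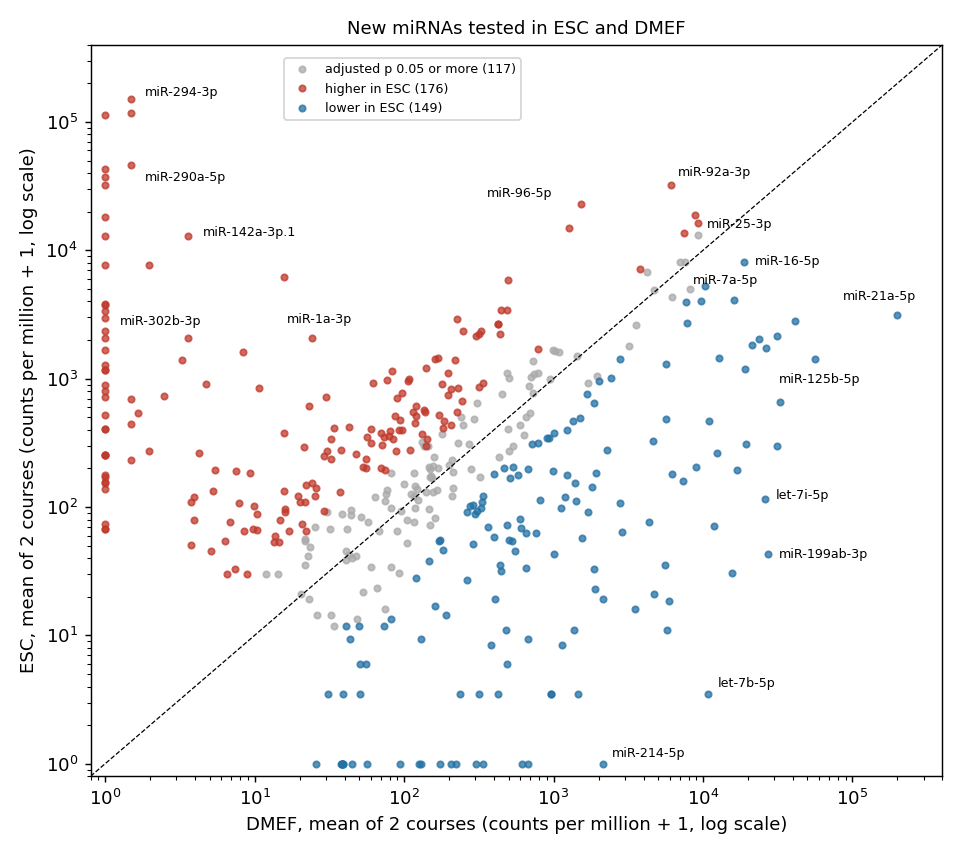
Each point is 1 of the 442 miRNAs tested, with its mean share of labelled counts over 2 DMEF courses on the x axis and over 2 ESC courses on the y axis (CPM + 1, log scales), coloured by the test of the difference. The 176 miRNAs higher in ESC include a column without a count in DMEF at the left edge, the 149 lower ones include a row without a count in ESC along the bottom, and the dashed line marks equal shares.

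The miR-290 cluster made 59.0% ± 1.25 (SD, n = 2) of all newly labelled miRNA in ESC, and between 56.1% and 60.9% in each of the 6 ESC libraries. All 14 of its 14 members were tested and were higher in ESC. In DMEF the whole cluster had 3 counts in 1784736, so its members passed the filter on their ESC counts. Its most abundant product was miR-294-3p, which promotes the G1-to-S transition of stem cells, at 157964 and 141308 CPM in the ESC courses and at 0 and 0.974 CPM in the DMEF courses. That is 37733 counts against 1, a ratio of 258988 with an exact 95% interval of 46480 to 10229800. miR-291a-3p stood at 110443 and 123867 CPM in ESC and miR-295-3p at 118288 and 110084 CPM. With no DMEF count, the latter was at least 67931-fold higher in ESC. Both arms of the miR-292a hairpin were abundant, with 41343 and 33088 CPM for the 3p arm and 27472 and 36801 CPM for the 5p arm, and miR-290a-5p reached 41258 and 50927 CPM. The median log2 difference of the cluster was 15.99, or 13.81 with members without a DMEF count set to their bound, beside 0.49 over all 442 miRNAs.

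The miR-302/miR-367 cluster, whose miR-302b-3p and miR-302d-3p carry the AAGUGCU seed and whose miR-367-3p carries AUUGCAC instead, is known to be induced as pluripotent cells move toward the primed state. All 9 of its tested members, of 10 listed, were higher in ESC, and it had no count in any DMEF library. The cluster therefore entered the test on ESC counts alone, and no other direction was possible. Its labelled share was far smaller than that of the miR-290 cluster and differed between the ESC courses, at 0.527% and 1.42%. miR-302b-3p was at 1835 and 4147 CPM, at least 1779-fold above DMEF, and miR-302d-3p at 1027 and 3634 CPM, at least 1386-fold above DMEF. Without the 2 h libraries, 8 members were called.

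Clusters of the miR-17 family, which promote proliferation, were made in both lines and more in ESC. The miR-17-92 cluster made 11.6% and 8.73% of labelled counts in the ESC courses and 4.34% and 4.12% in DMEF, and the 2 lines did not overlap in any library. Of its 14 members, all tested, 10 were higher and none lower, with a median log2 difference of 1.05. Only 4 were called with TMM, and scaling to the sequencing standards turned that median to -0.30. The main contributor was miR-92a-3p, at 42218 and 22844 CPM in ESC and 4981 and 7233 CPM in DMEF (log2 difference 2.41 ± 0.39 SE, adjusted p = 2.04e-05). miR-19b-3p was at 20469 and 16918 CPM against 8939 and 8827 CPM (1.07 ± 0.34, adjusted p = 0.0089). miR-20a-5p was at 16143 and 16693 CPM against 9979 and 8395 CPM, a difference of 0.84 on the log2 scale (adjusted p = 0.0335). miR-17-5p was at 15571 and 11863 CPM against 8116 and 6883 CPM (0.87, adjusted p = 0.0321). With TMM the calls for miR-19b-3p (adjusted p = 0.0947), miR-17-5p (0.219) and miR-20a-5p (0.230) were lost.

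The paralogous miR-106b-25 and miR-106a-363 clusters differed from each other. Their summed share was 3.31% and 3.28% in ESC against 2.14% and 2.15% in DMEF, and 9 of 13 tested members were higher with none lower (8 with TMM). miR-20b-5p, of the X-linked miR-106a-363 cluster, was at 2222 and 1924 CPM in ESC with no count in DMEF, at least 1233-fold higher. Of the miR-106b-25 cluster, which lies in an intron of Mcm7, the abundant arms miR-106b-5p, miR-25-3p and miR-93-5p did not pass. Their scarcer partner arms miR-106b-3p (505 and 528 CPM in ESC, 113 and 230 CPM in DMEF, log2 difference 1.59, adjusted p = 0.00972) and miR-25-5p (2.00, adjusted p = 0.00234) were higher in ESC. miR-25-3p was at 13753 and 12631 CPM in ESC and at 8254 and 10254 CPM in DMEF (log2 difference 0.51, adjusted p = 0.183). miR-93-5p was at 8383 and 7756 against 7599 and 6412 CPM (0.20, adjusted p = 0.616), and with TMM its sign turned to -0.19.

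The miR-182/miR-183/miR-96 cluster, best known from sensory cells, made 5.46% and 4.10% of the labelled counts in ESC and 0.353% and 0.376% in DMEF. All 7 members were tested and higher, with a median log2 difference of 3.56. miR-96-5p was at 25873 and 19844 CPM against 1521 and 1520 CPM (3.91 ± 0.38, adjusted p = 3.16e-08), and miR-182-5p at 17322 and 12417 CPM against 1259 and 1266 CPM. The miR-200 family, which maintains epithelial character by repressing Zeb1 and Zeb2, made 0.310% and 0.330% in ESC and 3 counts in all in DMEF. All 7 of its tested members, of 10 listed, were higher, having passed the filter on their ESC counts. miR-200b-3p was at 892 and 887 CPM in ESC, at least 529-fold above DMEF.

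The imprinted Dlk1-Dio3 locus on chromosome 12, whose maternal allele carries a large array of miRNAs, was higher in ESC for nearly all its tested members. Of 102 listed miRNAs 100 had a count and 78 were tested, of which 74 were higher in ESC and none lower, with a median log2 difference of 2.51. Scaling by TMM left 64 called, and all 78 differences kept their sign when counts were scaled to the standards, where the median of all miRNAs moved to -0.66. The locus made 4.23% and 4.44% of labelled counts in ESC and 0.955% and 0.517% in DMEF. miR-127-3p, which is antisense to the imprinted gene Rtl1, was at 3468 and 3375 CPM against 640 and 331 CPM (2.82 ± 0.48, adjusted p = 4.04e-05). miR-541-5p was at 4158 and 2667 CPM against 608 and 285 CPM. The Sfmbt2 cluster, another large imprinted array, differed less: 3 of 22 tested members were higher and none lower, with a median of 0.69 that turned to -0.23 with the standards, and its share was 0.564% and 0.550% in ESC against 0.531% and 0.287% in DMEF.

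**Figure D2:**
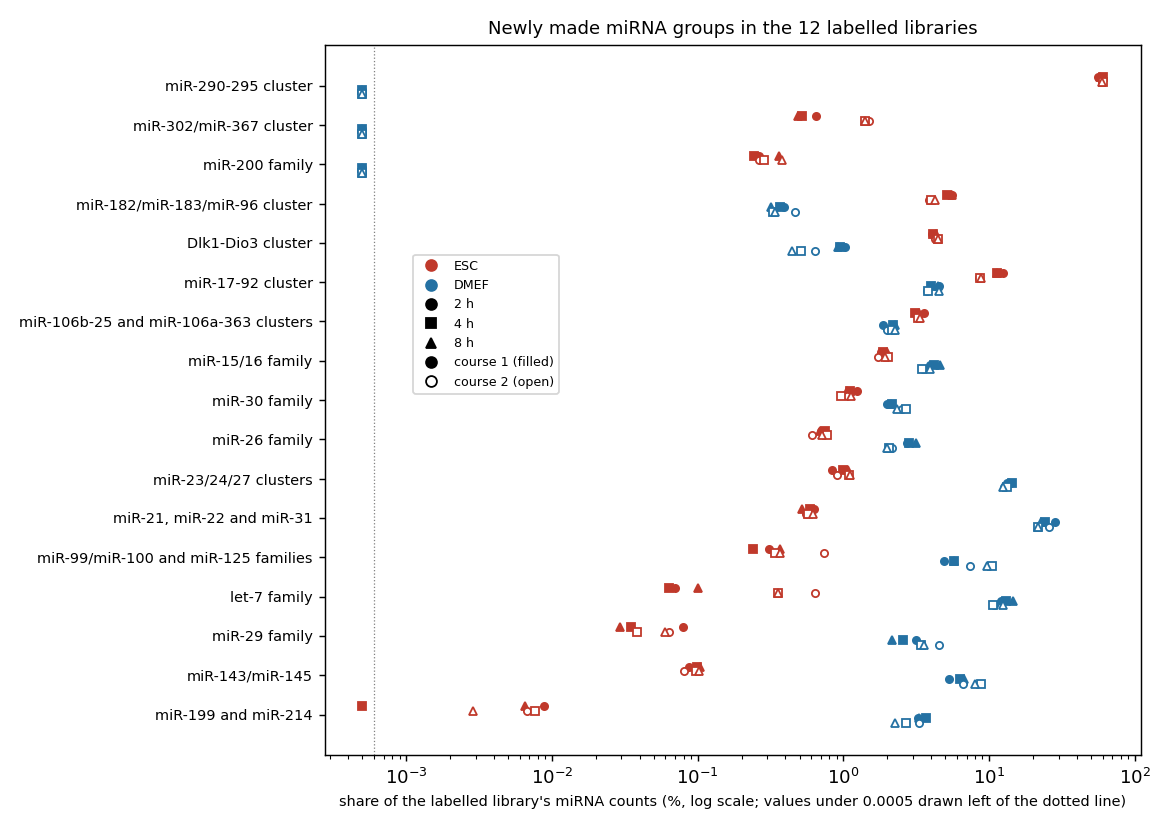
Share of each library's labelled miRNA counts taken by 17 groups of miRNAs (x axis, percent, log scale), with 1 point for each of the 12 libraries (red ESC, blue DMEF, shape for the labelling time, filled for course 1 and open for course 2). The 17 groups were chosen from 29 lists, and ESC and DMEF points do not overlap in any group shown. Among the lists not shown, the Sfmbt2, muscle, neural and noncanonical ones did overlap. The groups run from the miR-290 cluster at the top, near 0 in DMEF, to miR-199 and miR-214 at the bottom. The open circle of ESC course 2 at 2 h stands to the right for let-7 and for miR-99/miR-100 and miR-125.

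Fibroblast output was led by miR-21a-5p, a miRNA of mesenchymal cells that targets Pdcd4. It made 203195 and 196136 CPM of the labelled DMEF counts and 2727 and 3564 CPM in ESC, a log2 difference of -5.98 ± 0.38 (adjusted p = 9.85e-11). All 6 tested products of miR-21, miR-22 and miR-31 were lower in ESC, with a summed share of 24.6% and 23.0% in DMEF and 0.561% and 0.591% in ESC. miR-22-3p was at 35958 and 26674 CPM in DMEF against 2407 and 1854 CPM (-3.88 ± 0.39, adjusted p = 3.82e-08). The miR-23/24/27 clusters were the next largest, at 13.7% and 12.7% in DMEF and 1.00% and 1.07% in ESC, with all 11 members lower and a median of -3.55. Within them miR-24-3p was at 47324 and 35613 CPM against 2895 and 2692 CPM, miR-27a-3p at 30394 and 22652 against 1582 and 1879, and miR-23a-3p at 19190 and 28536 against 2087 and 1984.

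The let-7 family, which restrains growth in differentiated cells, made 13.4% and 11.6% of labelled counts in DMEF and 0.0842% and 0.398% in ESC. All 19 tested members, of 21 listed, were lower in ESC, with a median log2 difference of -7.24, or -5.07 with members without an ESC count set to their bound. let-7i-5p was at 33352 and 18940 CPM in DMEF and at 50.5 and 179 CPM in ESC (-7.63 ± 0.56, adjusted p = 6.93e-10). let-7b-5p had 19296 counts in DMEF and 1 in ESC, a ratio of 2811 with an exact 95% interval of 505 to 111046. let-7c-5p was at 17544 and 13906 CPM against 0 and 59.8 CPM, and let-7f-5p at 18062 and 20597 CPM in DMEF with 92 counts in all in ESC. The ESC share of let-7 came largely from course 2, where the 2 h library was highest at 0.637%, and without the 2 h libraries 17 members were called lower. The mRNA of Lin28a, whose protein blocks let-7 processing, was at 614 and 608 CPM in ESC and at 3.09 and 3.67 CPM in DMEF, and Lin28b at 28.7 and 29.2 CPM against 0.241 and 0.235 CPM. Whether these levels bear on the labelled let-7 was not tested.

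The miR-99/miR-100 and miR-125 families, which are often transcribed with let-7, made 5.50% and 9.12% in DMEF and 0.318% and 0.412% in ESC, with all 9 tested members lower, or 8 without the 2 h libraries. miR-125b-5p was at 38690 and 73389 CPM against 993 and 1829 CPM (-5.29 ± 0.46, adjusted p = 5.91e-09). miR-99a-5p had no count in ESC and 557 and 787 CPM in DMEF, at least 58.2-fold lower in ESC.

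Of the miRNAs listed as fibroblast (mesenchymal) markers, the tested products of miR-199, miR-214, miR-143, miR-145 and miR-31 were lower in ESC. The listed miR-196a-5p, given below, was higher in ESC. The listed miR-10a-5p (log2 difference -0.39, adjusted p = 0.788 in edgeR) and miR-10b-5p (-0.10, adjusted p = 0.868) did not pass. The 4 products of miR-199 and miR-214, of which both arms of miR-214 lie within the span of the noncoding gene Dnm3os, had 13 counts in all in ESC against 53419 in DMEF and all 4 were lower. miR-199ab-3p was at 30267 and 24392 CPM in DMEF and at 33.7 and 49.8 CPM in ESC (-9.24 ± 0.52, adjusted p = 1.48e-11), and miR-214-5p at 2826 and 1461 CPM with no count in ESC, at least 186-fold lower. The smooth muscle and fibroblast pair miR-143/miR-145 made 6.24% and 7.74% in DMEF and 0.0993% and 0.0972% in ESC, with all 4 tested members lower. miR-143-3p was at 33571 and 28994 CPM in DMEF and had 77 counts in ESC against 55217 (-6.71 ± 0.44, adjusted p = 1.18e-10), and miR-145a-5p at 23428 and 42381 CPM against 690 and 633 CPM. The miR-29 family, which represses collagen mRNAs, made 2.55% and 3.83% in DMEF and 0.0404% and 0.0533% in ESC, and all 6 tested members were lower. miR-221/miR-222, which repress the cell cycle inhibitor p27, had all 3 tested members lower, with miR-221-3p at 7889 and 16760 CPM in DMEF and 62 counts in all in ESC.

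Other families varied in how far they were lower in ESC, beside 33.7% lower and 39.8% higher over all 442 tested miRNAs. All 5 members of the miR-26 family were lower, with a median of -1.61, and miR-26a-5p was at 20274 and 12045 CPM in DMEF and 4225 and 4018 CPM in ESC. In the miR-30 family 6 of 11 were lower, led by miR-30a-5p at 5288 and 6051 CPM against 454 and 513 CPM, while miR-30c-5p at 4517 and 7808 against 4848 and 3863 CPM did not pass. In the miR-15/16 family, which slows the G1 phase, 4 of 9 tested members were lower and 2 higher (7 and 2 with TMM), and miR-16-5p was at 20328 and 17070 CPM in DMEF against 8181 and 8175 CPM (-1.19 ± 0.34, adjusted p = 0.00438). All 7 tested members of the p53-induced miR-34 family were lower, with a median of -6.55 (-4.14 with members without an ESC count at their bound), from miR-34a-5p at 7168 and 13561 against 4124 and 6365 CPM (-0.98, adjusted p = 0.034) to miR-34c-5p at 5915 and 5234 against 33.7 and 34.9 CPM (-7.32). In the X-linked miR-322/miR-503/miR-351/miR-450 cluster 5 of 9 were lower, and the 2 DMEF courses held 0.834% and 0.300%. The miR-130/miR-301 and miR-148/miR-152 families were mixed, with 4 of 13 higher and 3 lower, or 2 higher and 5 lower with TMM, and their median of 0.25 turned to -0.18.

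Members of 1 family could go opposite ways where they come from different loci. miR-181c-5p and miR-181d-5p, made from 1 cluster, were higher in ESC, with miR-181d-5p at 2895 and 2462 CPM against 447 and 405 CPM (2.65 ± 0.47, adjusted p = 5.76e-05). miR-181a-5p and miR-181b-5p, made from other clusters, were lower, with miR-181b-5p at 0 and 4.98 CPM in ESC and at 1329 and 1597 CPM in DMEF. In all, 3 of 7 tested miR-181 products were higher and 4 lower. Of the 4 tested Hox-cluster miRNAs of miR-10 and miR-196, 1 was higher and 1 lower. miR-196a-5p was at 623 and 1221 CPM in ESC and 112 and 10.7 CPM in DMEF (3.95 ± 0.76, adjusted p = 0.00015). miR-196b-5p was at 0 and 34.9 CPM against 6831 and 4970 CPM (-7.87 ± 0.67, adjusted p = 5.44e-09). miR-10a-5p (-0.39) and miR-10b-5p (-0.10) did not pass. Near-identical members of a family share reads where the counting splits them, and how such reads were assigned is not given in the sources used here.

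The 5 most abundant miRNAs that did not pass were miR-25-3p and miR-93-5p, given above, and miR-7a-5p, miR-15b-5p and miR-18a-5p. miR-7a-5p, a conserved miRNA of neuroendocrine cells, was made at the same order of share in both lines, with 7407 and 8798 CPM in ESC and 8415 and 6819 CPM in DMEF. Its difference was 0.09 ± 0.35 on the log2 scale (adjusted p = 0.829), the courses of the lines overlapped, and the sign turned with TMM to -0.30. miR-15b-5p was at 5437 and 4491 against 8552 and 7884 CPM (-0.73, adjusted p = 0.0765) and was called lower with TMM. miR-18a-5p was at 6986 and 6445 against 4827 and 3660 CPM (0.66, adjusted p = 0.115).

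Markers of other cell types were read beside these groups. Over all 442 tested miRNAs 39.8% were higher in ESC and 33.7% lower, and the list counts should be read against these shares. The muscle and neural lists were each near the first share. The hematopoietic list made 2.42% and 2.19% of labelled counts in ESC and 0.00106% and 0.00205% in DMEF, and all 4 tested members, of 10 listed, were higher in ESC. Most of it was miR-142a, with miR-142a-3p.1 at 13231 and 12701 CPM against 1.32 and 3.90 CPM (12.07 ± 0.63, adjusted p = 4.18e-12), and miR-150-5p followed at 2474 and 1675 against 1.32 and 3.90 CPM. Besides miR-150-5p, the tested members were miR-142a-3p.1, miR-142a-3p.2 and miR-142a-5p, which are products of the same hairpin. The red-cell miRNA miR-451a was at or under 64.9 CPM in every ESC library, and the myeloid miR-223-3p was at 0 in 5 of 6, with 472 CPM in the 4 h library of course 2. Both ESC courses carried the miR-142a signal, and Ptprc mRNA had no count in either ESC library. Of the muscle list, 2 of 5 tested were higher and 2 lower, or 3 higher and 1 lower without the 2 h libraries. miR-499-5p was at 522 and 523 CPM in ESC with no count in DMEF, and miR-206-3p was at 290 and 314 CPM in DMEF with no count in ESC. miR-1a-3p, at 0 and 4157 CPM in the ESC courses and 6.59 and 39.9 CPM in DMEF (6.46 ± 1.31, adjusted p = 0.000244), rested on ESC course 2: the difference was 5.19 without the 2 h libraries and -6.88, no longer called, without that course. The neural list had 3 of 8 higher and 2 lower, with a median of 0.39 that turned to -0.05 with TMM. Its miR-124-3p.1 was at 1010 and 2243 CPM in ESC against 7.91 and 6.82 CPM. Of the endothelial and liver list 1 of 2 tested was higher, miR-126a-5p at 269 and 429 CPM against 69.9 and 76.0 CPM. Of the miRNAs listed as capped, mirtron or otherwise noncanonical, 2 of 4 tested were higher and none lower, and their median of 1.18 turned to -0.16 with the standards.

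Grouped by seed, the largest sums differed between the lines. The seed AAGUGCU, printed above on miR-294-3p and miR-302b-3p and carried by 5 listed miRNAs, made 39.0% and 38.3% of labelled counts in ESC and 0% and 0.000195% in DMEF. The CUCAAAC seed of miR-290a-5p and miR-292a-5p added 7.42% and 9.75%. The shifted AAAGUGC seed of miR-17-5p and miR-20a-5p was shared more evenly, at 4.76% and 4.55% in ESC and 3.08% and 2.60% in DMEF, as was GUGCAAA of miR-19 at 2.74% and 2.43% against 1.28% and 1.26%. In DMEF the AGCUUAU seed of miR-21a-5p made 20.3% and 19.6%, against 0.273% and 0.356% in ESC. The GAGGUAG seed of let-7 made 13.1% and 11.3%, against 0.0825% and 0.394%. CCCUGAG of the miR-125 group made 4.49% and 8.09% against 0.278% and 0.342%, and AGCACCA of miR-29 made 2.18% and 3.11% against 0.0370% and 0.0488%. These sums follow from the same counts as the tests of single miRNAs and were not tested.

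**Figure D3:**
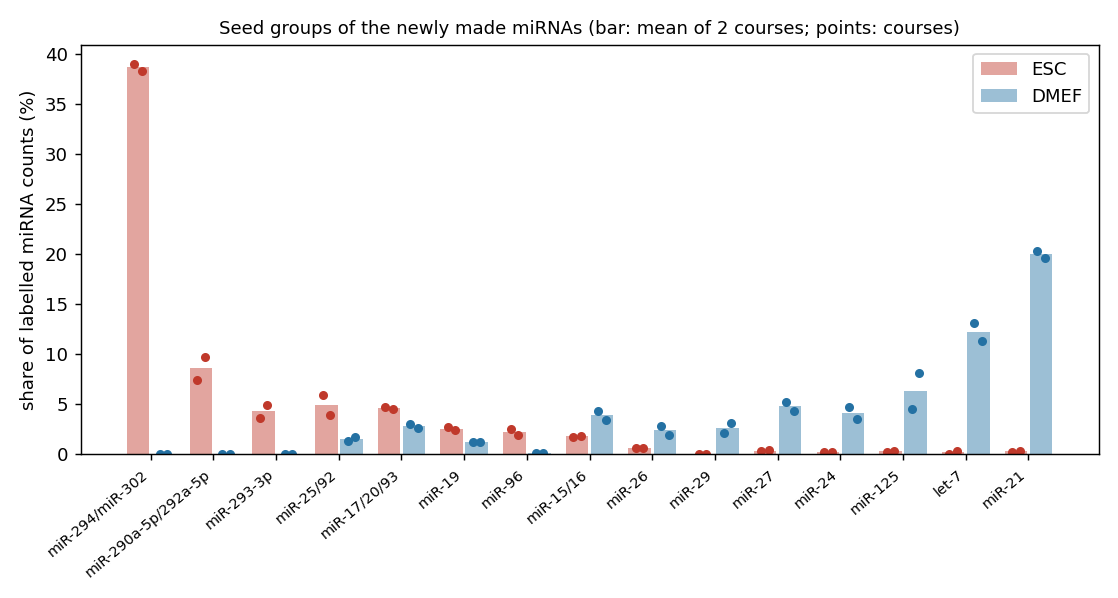
Summed share of labelled miRNA counts by seed group (y axis, percent; bars are the mean of 2 courses, points the courses; red ESC, blue DMEF). The miR-294/miR-302 seed stands near 39% in ESC and near 0 in DMEF, and miR-21, let-7 and miR-125 stand highest in DMEF at the right.

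The label takes the place of uridine, so the number of uridines in a miRNA was set beside the shares. Over the 360 tested miRNAs with a sequence, the median was 7 uridines for those higher in ESC (n = 148) and for those lower (n = 132) and 6 for the rest (n = 80). The ratio of new to standing share did move with uridines within each line. Over 150 miRNAs with at least 10 counts in every labelled and input course, the median log2 ratio was -0.59 in ESC and -1.13 in DMEF at 0 to 3 uridines (n = 7). It was -0.35 and -0.09 at 4 to 6 uridines (n = 73), 0.19 and 0.49 at 7 to 9 (n = 58) and 0.82 and 1.77 at 10 or more (n = 12). The bins at either end hold under 20 miRNAs. miR-214-3p, with its single uridine, had new-to-standing ratios of 0.0264 and 0.0564 in DMEF.

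Where new and standing RNA told different stories was asked with the interaction of library kind and line, that is, whether the new-to-standing ratio differed between ESC and DMEF. Few miRNAs did so: of 625 tested, the ratio was higher in ESC for 22 (3.52%) and lower for 32 (5.12%) in edgeR's quasi-likelihood test with the course as a block, with a median log2 difference of -0.35 over all 625. TMM moved that median to 0.10 and left 14 higher and 4 lower. Of the 54 calls, 31 were also made without the 2 h libraries, and 14 of those with TMM as well. Leaving out ESC course 1 gave 4 calls, 3 of them among the 54, and leaving out ESC course 2 gave 1, which was among them. Without the course as a block none was called, and 56 of 625 were under an unadjusted p of 0.05, with a lowest adjusted p of 0.164. Line and dose differ together in this ratio too.

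miR-7a-5p was the clearest abundant case. Its standing share was 4642 and 5026 CPM in ESC and 942 and 1305 CPM in DMEF, whereas the courses of the lines overlapped in its new share, as given above. The new-to-standing ratio was 1.60 and 1.75 in ESC and 8.93 and 5.23 in DMEF, without overlap, a log2 difference of -2.03 (adjusted p = 1.46e-13, and 0.00463 with TMM). miR-7a-5p has 10 uridines, and the median log2 ratio of miRNAs with 10 or more was 0.82 in ESC and 1.77 in DMEF. Of the miRNAs named below, miR-335-3p (11 uridines) had a lower ratio in ESC and miR-96-5p (10 uridines) a higher one. miR-7a-5p is known as the miRNA whose decay is directed by the long noncoding RNA Cyrano. Whether uridine content or Cyrano bears on the miR-7a-5p difference was not tested. Leaving out either ESC course kept the size, at -1.96 and -2.10, and lost the call.

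A pair of miRNAs of the Dlk1-Dio3 locus also had a lower ratio in ESC, although both were higher in new ESC RNA. New miR-154-3p was at 2542 and 2771 CPM in ESC and at 541 and 303 CPM in DMEF (log2 difference 2.66, adjusted p = 8.59e-05), and new miR-376b-3p differed by 2.36 (adjusted p = 0.000556). In standing RNA miR-154-3p was at 2658 and 2798 CPM in ESC and at 81.8 and 59.7 CPM in DMEF, with ratios of 0.956 and 0.991 against 6.61 and 5.07 (log2 difference -2.58, adjusted p = 2.41e-14). For miR-376b-3p the ratios were 0.490 and 0.600 against 3.24 and 2.43 (-2.37). Without ESC course 1 the adjusted p was 0.0596 for miR-154-3p and 0.0882 for miR-376b-3p, and without ESC course 2 it was 0.115 for both. Across the locus 10 of 98 tested miRNAs had a lower ratio in ESC and 2 a higher one, and with TMM 2 were lower and 2 higher. miR-335-3p, from an intron of Mest, had ratios of 1.78 and 1.83 against 7.80 and 5.52 (-1.87), and miR-27a-5p of 2.95 and 3.18 against 14.1 and 11.1 (-2.02). The latter was not called with TMM or without the 2 h libraries. Of the miR-17-92 cluster 5 members had a lower ratio and 1 a higher one, and with TMM none was lower and 1 higher. For miR-20a-5p, which was modestly higher in new ESC RNA, the ratios were 1.05 and 0.932 in ESC and 2.14 and 1.51 in DMEF (-0.87), a call that was lost with TMM.

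Higher ratios in ESC fell on several miRNAs that were less abundant there. Among them were 4 of 11 tested members of the miR-99/miR-100 and miR-125 families, or 2 with TMM. miR-29b-3p had ratios of 1.50 and 1.62 in ESC and 0.582 and 0.514 in DMEF (log2 difference 1.53), and miR-99b-5p of 0.727 and 0.602 against 0.285 and 0.308 (1.14). miR-96-5p, abundant in ESC, had 1.77 and 1.62 against 0.946 and 0.945 (0.84). miR-125b-5p had 0.720 and 2.68 in ESC against 0.298 and 0.672 in DMEF (1.76, and 1.42 without the 2 h libraries), so that the lower ESC course lay just above the higher DMEF course. Its call was lost with TMM. The 4 other miRNAs of lowest p rested on 1 course. miR-100-5p (4.50), miR-1a-3p (4.73) and miR-133a-3p.1 (6.95) had no count in ESC course 1, and without ESC course 2 the values were -5.27, 0.71 and -0.44. Without the 2 h libraries they were 3.19, 2.87 and 6.67. miR-122-5p (8.81) had 7 counts in all in ESC, from course 1, and 5 in DMEF.

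**Figure D4:**
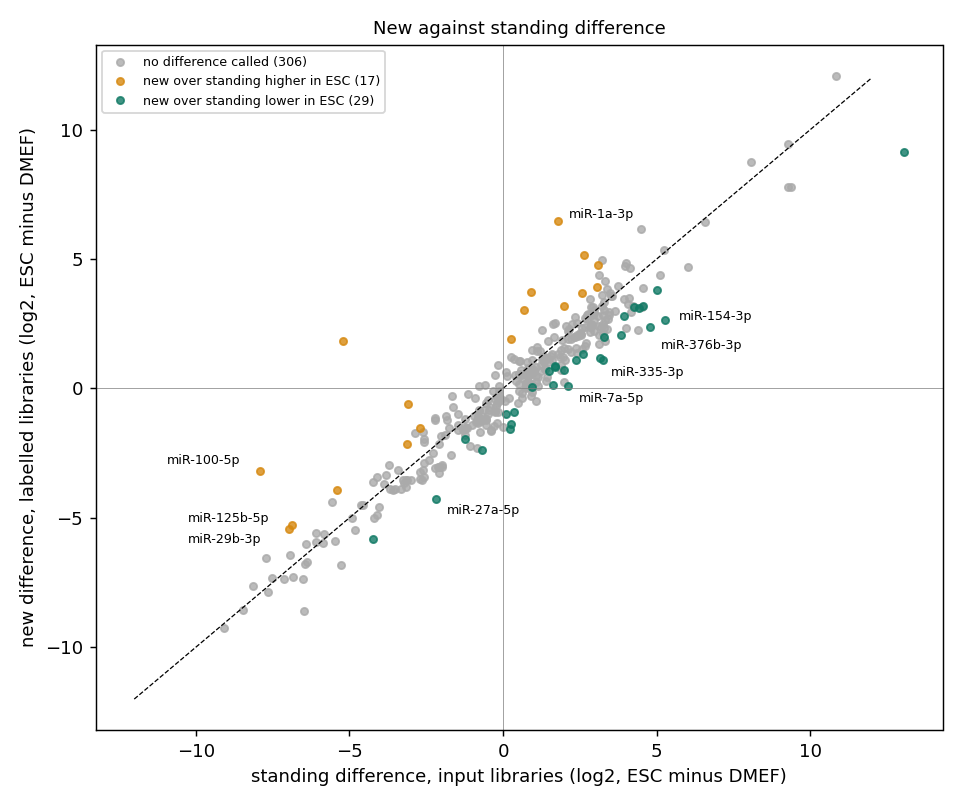
Difference between the lines in standing share (x axis, log2, ESC minus DMEF) and in new share (y axis, the same scale) for 352 miRNAs with more than 3 counts in both lines, coloured by the test of the new-to-standing ratio. Most points follow the dashed line of equal differences, the 17 called higher lie above it and the 29 called lower, with miR-7a-5p and miR-154-3p among them, lie below it.

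**Figure D5:**
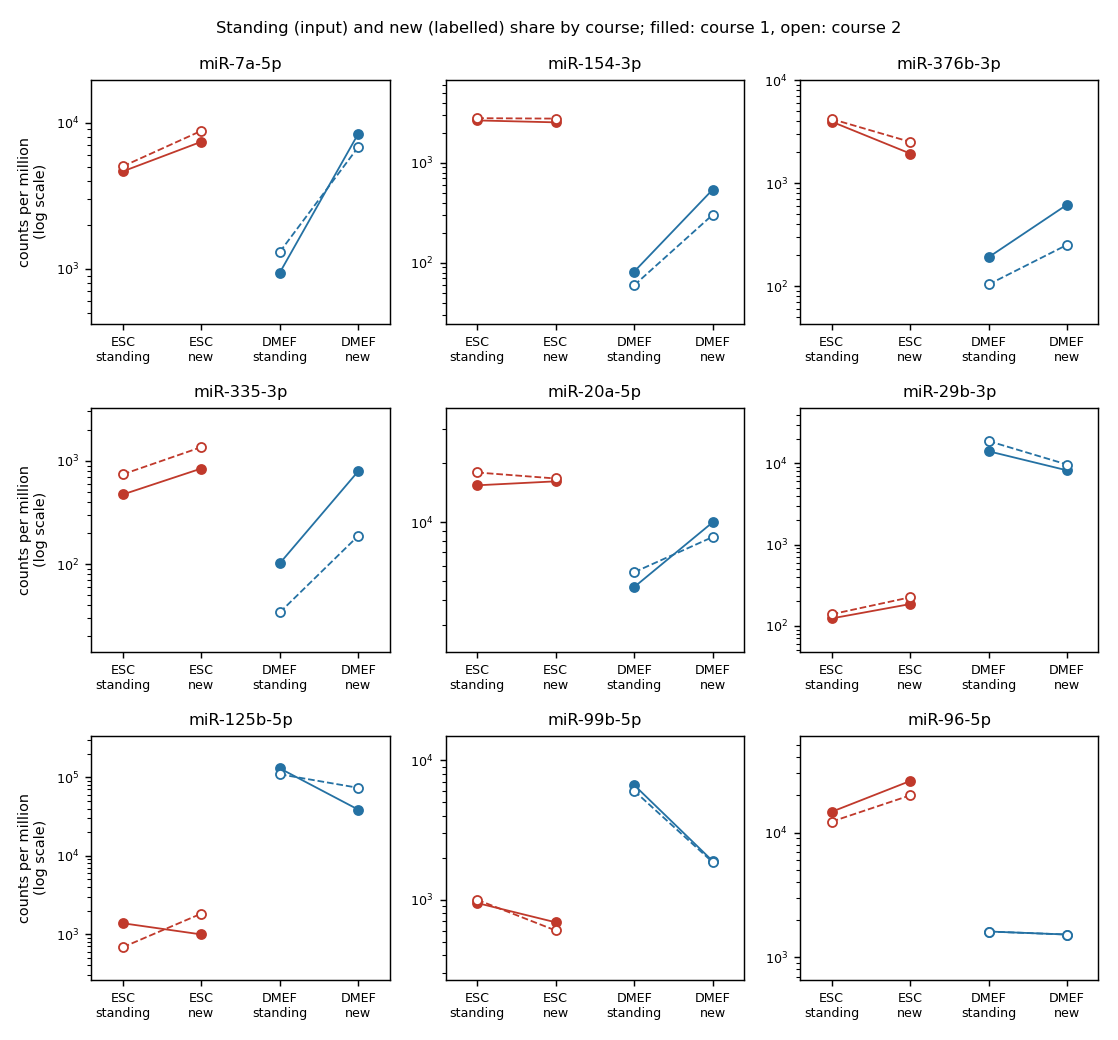
Standing and new share of 9 miRNAs (y axes, CPM, log scales) with 1 line for each course (red ESC, blue DMEF, filled course 1, open course 2). In the DMEF courses miR-7a-5p, miR-154-3p, miR-376b-3p and miR-335-3p rise from standing to new. In the ESC courses miR-7a-5p and miR-335-3p rise by smaller factors, miR-154-3p is nearly level and miR-376b-3p falls. miR-29b-3p and miR-125b-5p fall in DMEF, and miR-99b-5p falls in both lines, by a larger factor in DMEF.

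Few miRNAs differed between the lines in how their share moved during labelling. Of 410 tested, the 8 h to 2 h ratio of shares differed in 2 with ESC higher (0.488%) and in 5 with ESC lower (1.22%). The 2 higher ones were again miR-376b-3p and miR-154-3p. miR-376b-3p went from 790 to 2077 and from 1711 to 2501 CPM between 2 and 8 h in the ESC courses, and from 761 to 526 and from 341 to 209 CPM in DMEF (log2 difference 1.38 ± 0.34, adjusted p = 0.00429). For miR-154-3p the values were 2721 to 2174 and 2449 to 2843 CPM in ESC and 728 to 380 and 496 to 189 CPM in DMEF (1.18 ± 0.31, adjusted p = 0.00983). Both share counts with the new-to-standing result and are not separate evidence, and miR-376b-3p was not called when any 1 course was left out, while miR-154-3p kept its call only without ESC course 1. Without the course as a block none of the 410 was called, with 5 under an unadjusted p of 0.05 in edgeR. The 5 lower ones, let-7a-5p (-1.90), miR-125b-5p (-1.67), miR-100-5p (-2.996), miR-1a-3p (-3.35) and miR-9-5p (-1.45), were those raised in the 2 h library of ESC course 2, and none was called without that course. The next by p among those rising more in ESC were miR-96-5p (0.69, adjusted p = 0.0636), miR-34a-3p (2.80, adjusted p = 0.192) and miR-369-3p (0.89, adjusted p = 0.332), which did not pass.

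Few hairpins passed the test of arm use. Among 103 hairpins with at least 20 labelled counts of both arms together in every course, the 5p-to-3p ratio was higher in ESC for 2 (1.94%) and lower for 1 (0.971%) in limma with Benjamini-Hochberg adjustment. The call with most counts on its scarcer arm was miR-125b, whose 3p arm made 0% and 1.08% of the hairpin's counts in ESC and 13.4% and 7.001% in DMEF (log2 difference 3.41 ± 0.53, adjusted p = 0.0228). Its 3p arm had 0 and 4 counts in the ESC courses. Arms were summed over hairpin copies that share a name, and miR-125b-5p comes from 2 loci. For miR-125b a change in the locus used cannot be told from a change in arm use. The other calls, miR-320 (3.28) and miR-374b (-4.60), had 1 arm at 0 to 2 counts in every course. Where an arm is that low, as in all 3 calls, the value depends on the depth of the library and the pseudocount of 0.5. With at least 5 counts of each arm in every course, 59 hairpins were left and none was called, with 11 under an unadjusted p of 0.05 and a lowest adjusted p of 0.0548. miR-18a, whose 3p arm made 16.2% and 8.94% in ESC and 2.03% and 3.00% in DMEF, came nearest on the other side (-2.44 ± 0.53, adjusted p = 0.0692).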

How the data were processed

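Unnormalized read counts of each mature miRNA in each library were deposited by the authors. The submitters' processing notes name cutadapt, STAR 2.4 and HTSeq 0.9.1 with mm10/GRCm38, and for ESC course 2 cutadapt alone. Whether duplicate reads were removed by the random adapter bases is not given in the sources used here. From these counts, CPM is the count divided by the mouse miRNA total of the same library or summed course, times 1e+06. Counts at 2, 4 and 8 h were summed for each course, and 2 ESC courses were compared with 2 DMEF courses in edgeR 4.0.16 (R 4.3.3) with the library total as the scale, its expression filter, the quasi-likelihood test and Benjamini-Hochberg adjustment at 0.05. The new-to-standing and the 8 h to 2 h interactions used the course as a block, and arm ratios used limma 3.58.1 on log2((5p + 0.5)/(3p + 0.5)). All tests are two-sided, and the fits were tested on simulated counts. Alternatives were TMM, the sequencing standards, DESeq2 1.42.0, other filters and times, subtraction of the 0 h background, the replicate block and leaving out each course. The subtraction scaled the 0 h library of course 1 by the standards for both courses of a line. DMEF course 2 had 607 to 775 standard counts against 89571 in the DMEF 0 h library, so almost nothing was subtracted from it.

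The members and the 29 gene lists were chosen with earlier results of these data known. The miRNAs named are the 10 with the highest share among those higher and among those lower, the 3 of largest fold each way with at least 100 counts, the 5 most abundant that did not pass, the 5 of lowest p each way in the other tests, and up to 4 of each list by share. In the new-to-standing result miR-29b-3p, miR-99b-5p, miR-96-5p and miR-20a-5p, and among blood markers miR-451a and miR-223-3p, were named after their values were seen. Matching course numbers across the lines are not stated to mark a shared batch, so the block is an alternative only.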

Additional observations from a re-analysis of the deposited data

Results flagged for a closer look

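In 3 of 53 sets of 6 libraries, 1 library lay far from the other 5 by Dixon's test, and chance flags about 1 in 20. The 2 h library of ESC course 2 held 0.735% for the miR-99/miR-100 and miR-125 families, and 1.94% for the muscle list, above the other ESC libraries. The 2 h library of ESC course 1 held 0.0263% for the endothelial and liver list, below the others, at a depth of 11392 counts.

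The new-to-standing difference between the lines passed the test for miR-100-5p (log2 4.50), miR-1a-3p (4.73), miR-133a-3p.1 (6.95), miR-122-5p (8.81) and miR-125b-5p (1.76) with ESC higher. With ESC lower it passed for miR-154-3p (-2.58), miR-376b-3p (-2.37), miR-7a-5p (-2.03), miR-27a-5p (-2.02) and miR-335-3p (-1.87). The difference in the 8 h to 2 h change passed for miR-376b-3p (1.38) and miR-154-3p (1.18), and, with ESC lower, for let-7a-5p (-1.90), miR-125b-5p (-1.67), miR-100-5p (-2.996), miR-1a-3p (-3.35) and miR-9-5p (-1.45).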

How the results depend on the processing

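The contrast of new miRNAs gave 176 higher and 149 lower calls. Leaving out each course gave 113 to 184 higher, and the fewest, 113 higher and 101 lower, came without ESC course 2. Scaling to the sequencing standards gave 0 higher and 0 lower in edgeR, with 20 under an unadjusted p of 0.05 and a lowest adjusted p of 0.218. With the course number as a replicate block, 172 were higher and 141 lower. Deviations of same-numbered courses correlated at 0.128 over 442 miRNAs with 2 pairs only. The 4 and 8 h libraries alone, an alternative chosen after seeing the data like the newer dispersion estimate and the minimum for each arm, gave 170 and 123. Of all 325 calls, 297 were also made in the same direction with TMM, 288 with DESeq2 and 0 with the standards. Single values were compared for 28 named miRNAs under each alternative. Most of the 28 were picked by largest share or fold among the calls, so they do not stand for all 442. Of these values, 409 kept direction and side of the threshold, 25 lost it, 3 passed and 11 reversed. Reversed were miR-19b-3p (-0.32), miR-25-3p (-0.98), miR-18a-5p (-0.47), miR-7a-5p (-0.97) and miR-93-5p (-1.01) with the standards, miR-7a-5p (-0.30) and miR-93-5p (-0.19) with TMM, miR-7a-5p (-0.37) and miR-93-5p (-0.26) with DESeq2, and miR-7a-5p without ESC course 2 (-0.040) or DMEF course 2 (-0.054), where leaving out each course gave -0.054 to 0.25. The cause was not tested.

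The new-to-standing calls were 22 higher and 32 lower, and 14 and 4 with TMM. DESeq2 gave 27 calls, of which 12 were lower and the rest higher. There were 10 and 10 with the 0 h background subtracted, and 15 higher and 20 lower without the 2 h libraries. No replicate block left 0 and 0. Leaving out each course gave 1 to 24 higher and 0 to 57 lower. Over these, miR-100-5p ran from -5.27 to 4.76 and miR-133a-3p.1 from -0.44 to 6.99, with both lowest values without ESC course 2, and miR-122-5p from -1.06 without ESC course 1 to 13.38. For the 8 h to 2 h change, no replicate block gave 0 calls (5 of 410 under an unadjusted p of 0.05), leaving out each course gave 0 to 5, and miR-1a-3p ran from -3.44 to 0.064, the latter without ESC course 2. For arm ratios the replicate block gave 5 calls, the 2 h libraries alone 1, the 8 h libraries alone 6, the 4 and 8 h libraries 0, at least 5 counts of each arm 0, and leaving out each course 0 to 1. Depth limits ESC most: at 59406 counts in course 1, a count of 0 allows 50.5 CPM.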
